A study of Mus musculus with 12 samples.

Results

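Pericytes are the contractile cells that sit in the basement membrane of capillaries and small venules, in direct contact with the endothelium. They are recruited to growing vessels by platelet-derived growth factor B from endothelial cells, which acts on the receptor Pdgfrb, and in skin they have been discussed as one source of scar-forming cells. No single transcript defines them, so they are recognized by a panel of surface, signalling, channel and mitochondrial genes. The genes described here are 8 members of such a panel, Rgs5, Cspg4, Mcam, Kcnj8, Abcc9, Higd1b, Cox4i2 and Anpep. They were chosen by name, and all 8 were found among the 35976 genes of the count files and among the 18853 genes that passed the filter on low counts.

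The counts came from bulk RNA sequencing of scar tissue from male mice aged 8 to 12 weeks on a C57BL/6J background. Each mouse had a 1.5 cm split wound in the back skin and received a plastic device 6 days later, which was extended by 1 mm per day to a total of 8 mm in the traction groups and left unextended in the sham groups. Tem1WT/WT mice carry the intact gene, and in Tem1lacZ/lacZ mice a lacZ reporter takes the place of the only exon of the gene in every cell of the body. Tem1 (Cd248, endosialin) is itself a transmembrane protein of pericytes and fibroblasts, so the knockout removes one marker of the cells that the panel describes. The 4 groups, Tem1WT/WT sham, Tem1WT/WT traction, Tem1lacZ/lacZ sham and Tem1lacZ/lacZ traction, held 3 mice each. In RNA from a whole scar, fewer cells of a type and less RNA per cell cannot be told apart.

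The 12 libraries held 41536788 to 64644293 assigned reads, with a median of 48173798. Cd248 followed the genotype in every library, with 3883 to 16413 reads in the 6 Tem1WT/WT libraries and 0 to 13 in the 6 Tem1lacZ/lacZ libraries. Several libraries stood apart in the genes of other cell types. Tem1WT/WT traction replicate 1 had a neutrophil list 4.68 log2 units above the mean of the 12 libraries, and Tem1WT/WT sham replicate 1 had a skeletal muscle list 2.90 above it. The adipocyte list was 3.11 above it in Tem1lacZ/lacZ sham replicate 1, 2.35 above it in Tem1lacZ/lacZ traction replicate 3 and at -3.95 in Tem1WT/WT traction replicate 2. The medians of the members are given below with and without the libraries that move them. Levels are counts scaled to the effective library size after TMM normalization, in the usual CPM unit, and changes are log2 fold changes from edgeR's quasi-likelihood test with their standard error (SE). Adjusted p-values are Benjamini-Hochberg values over all 18853 genes, and a gene was called at an adjusted p under 0.05.

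Of the surface proteins of the panel, Mcam lies at chr9:44134469-44142727 on the plus strand, Cspg4 at chr9:56865033-56899870 on the plus strand and Anpep at chr7:79821803-79861059 on the minus strand (GRCm38). Rgs5 occupies chr1:169655501-169695813 on the plus strand. Kcnj8 (chr6:142564837-142571614) and Abcc9 (chr6:142587862-142702315) are neighbours on the minus strand, 16247 bases apart. Higd1b lies at chr11:102835849-102838040 and Cox4i2 at chr2:152754173-152765037, both on the plus strand. All are protein-coding genes. The antisense gene Gm10687 overlaps the start of Mcam and held 6 to 43 reads per library, against 1900 to 8158 for Mcam. Whether the reads were counted by strand is not given in the sources used here, so reads of overlapping antisense genes could not be separated from those of their partners.

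RefSeq promoters (GRCm38.p6, 250 bases before to 50 after the start) were matched for 6 of the 8 members, and Higd1b and Cox4i2 had no entry. Rgs5 and Kcnj8 are shown because their levels had the highest correlation of any 2 members over the 12 libraries, and the Mcam stretch because Mcam was the member that passed the test. Capitals mark the motif named for each line, and Kcnj8 held none of the motifs searched in the stretch shown. The 250 bases before the start of Rgs5 (chr1:169655251-169655500, plus strand), with an inverted CCAAT box whose first base is at -67, the 250 bases before that of Kcnj8 (chr6:142571615-142571864, minus strand) and 30 bases of Mcam (chr9:44134618-44134647, plus strand) around a cAMP response element with its first base at -29 read as follows.
Rgs5: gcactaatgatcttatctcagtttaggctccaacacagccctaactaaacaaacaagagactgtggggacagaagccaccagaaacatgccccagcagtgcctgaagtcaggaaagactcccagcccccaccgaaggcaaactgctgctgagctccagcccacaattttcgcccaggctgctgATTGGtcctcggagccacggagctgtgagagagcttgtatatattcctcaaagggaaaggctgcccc
Kcnj8: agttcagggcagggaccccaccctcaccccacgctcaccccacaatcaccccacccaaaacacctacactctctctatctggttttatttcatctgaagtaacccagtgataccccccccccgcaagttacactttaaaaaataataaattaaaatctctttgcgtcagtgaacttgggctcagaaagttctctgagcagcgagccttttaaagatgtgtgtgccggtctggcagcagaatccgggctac
Mcam: ccccgccccccTGACGTCAgcccccgacag

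The motifs were chosen after these promoters had been seen, and both strands were searched. The cAMP response element TGACGTCA was present in 1 of the 6 members with a promoter, Mcam, and in 1.79% of 32851 promoters of the same length. The 30 bases of Mcam also lie inside a longer annotated first exon in another gene annotation of this build, GENCODE. The GC box GGGCGG was present in 4 of 6, Cspg4, Mcam, Abcc9 and Anpep, and in 35.7% of all promoters. The CCAAT box was present in 1 of 6, Rgs5, and in 37.4% of all promoters. TGGGAA, the core of the motif bound by the Notch partner Rbpj, was present in Kcnj8 and Abcc9 and in 25.6% of all promoters, and in Abcc9 it shared 4 bases with CATTCC, read on the reverse strand as GGAATG, which was present in 14.7%. ACGTG and the CArG box of smooth muscle genes were found in 0 of 6 members and in 19.6% and 1.63% of all promoters. A match of letters does not show that a factor binds there.

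Per length of exon, the members covered a wide range of abundance. Over the 12 libraries Rgs5 averaged 71.3 ± 31.4 CPM per kilobase (SD, n = 12), followed by Anpep at 33.8 ± 12.1 and Mcam at 25.5 ± 11.0. A middle tier held Kcnj8 at 5.24 ± 2.19 and its partner Abcc9 at 4.23 ± 1.69. Cspg4 at 2.38 ± 0.638, Higd1b at 2.13 ± 1.09 and Cox4i2 at 1.66 ± 0.51 formed the lowest tier. The ranges of neighbouring members overlapped within each tier, and those of the middle and lowest tiers also overlapped each other. Raw reads ran from 6131 to 27278 for Rgs5, but only from 31 to 187 for Higd1b and from 36 to 108 for Cox4i2, so the last 2 carried the largest counting error.

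**Figure D1:**
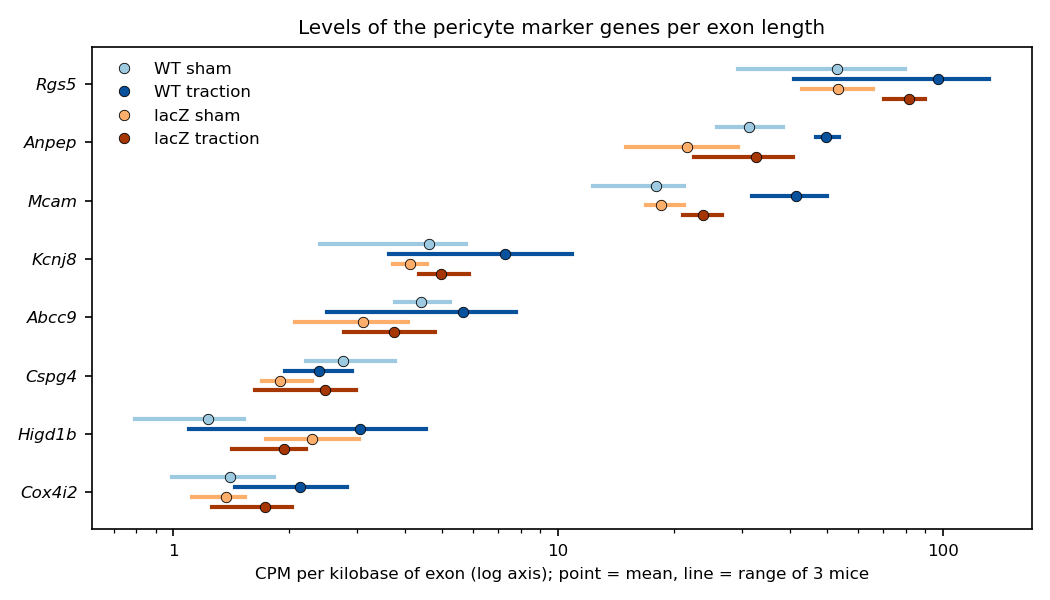
CPM per kilobase of exon on a log axis for the 8 members, with 1 line per group running from the lowest to the highest of 3 mice and a point at the mean. Rgs5, at 71.3 over the 12 libraries, had the highest mean, and Mcam in Tem1WT/WT traction (32.0 to 50.0) lay to the right of the other 3 groups.

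Traction raised 1 member of the panel in Tem1WT/WT scars, the adhesion molecule Mcam, which was 2.30-fold higher, and no member passed the test in Tem1lacZ/lacZ scars or between the genotypes. Anpep was also higher in every Tem1WT/WT traction library than in every sham library but did not pass the test. The other 6 members had traction and sham libraries that overlapped in Tem1WT/WT mice, and for all 6 of them traction replicate 1 lay within or below the sham range.

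Mcam encodes an immunoglobulin-family adhesion molecule of pericytes and smooth muscle cells that endothelial cells also carry. Its level was 41.2, 68.7 and 71.3 CPM in the 3 Tem1WT/WT sham libraries and 107, 142 and 168 CPM in the traction libraries. In Tem1lacZ/lacZ it was 71.0, 56.8 and 58.3 CPM under sham and 70.8, 89.5 and 78.8 CPM under traction. All 3 Tem1WT/WT traction libraries lay above the other 9, and those 9 overlapped among their groups. The mean rose from 60.4 ± 16.6 to 139 ± 30.3 CPM (SD, n = 3) in Tem1WT/WT mice, a log2 fold change of 1.20 (SE 0.229, adjusted p = 0.0277). In Tem1lacZ/lacZ mice the means were 62.0 ± 7.82 and 79.7 ± 9.39 CPM, a log2 fold change of 0.36 (SE 0.226, adjusted p = 0.67). Under traction the knockout value was 0.80 log2 units below that of Tem1WT/WT (log2 fold change -0.80, SE 0.227, adjusted p = 0.0952), with no overlap of libraries. The interaction, the response of the knockout minus that of Tem1WT/WT, was -0.84 (SE 0.319, unadjusted p = 0.0232, adjusted p = 0.548), so an unequal response of Mcam was not shown by this test.

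The call for Mcam in Tem1WT/WT mice held in 16 of 20 alternative fits, with log2 fold changes from 0.985 to 1.34. Without Tem1WT/WT traction replicate 1, the library with the high neutrophil list, the value was 1.34 (adjusted p = 0.0384). The call was lost without Tem1WT/WT sham replicate 1 (0.985, adjusted p = 0.116), without sham replicate 2 (1.32, adjusted p = 0.0869), without Tem1lacZ/lacZ sham replicate 3 (1.19, adjusted p = 0.0502) and when only the 6 Tem1WT/WT libraries were fitted (1.20, adjusted p = 0.0825).

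Anpep encodes aminopeptidase N, a membrane peptidase of pericytes that fibroblasts and myeloid cells also carry. It stood at 107, 122 and 159 CPM in Tem1WT/WT sham and at 201, 194 and 222 CPM in Tem1WT/WT traction libraries. In Tem1lacZ/lacZ it was at 122, 62.2 and 84.5 CPM under sham and at 93.0, 142 and 169 CPM under traction. As with Mcam, the 3 Tem1WT/WT traction libraries were the highest of the 12. The log2 fold change with traction was 0.67 in Tem1WT/WT (SE 0.271, adjusted p = 0.121) and 0.59 in Tem1lacZ/lacZ (SE 0.27, adjusted p = 0.617), so that, unlike Mcam, the 2 genotypes gave values within 1 SE of each other. Averaged over the treatments, the knockout had a log2 fold change of -0.57 against Tem1WT/WT (SE 0.191, adjusted p = 0.0932).

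Cspg4, the NG2 proteoglycan of the pericyte surface, was the 1 member with a log2 fold change below 0 with traction in Tem1WT/WT. It was at 27.7, 44.8 and 26.4 CPM in Tem1WT/WT sham and at 27.6, 23.2 and 34.8 CPM in Tem1WT/WT traction libraries. Tem1lacZ/lacZ libraries had 27.3, 20.2 and 20.2 CPM under sham and 19.5, 33.7 and 35.7 CPM under traction. The 4 groups overlapped, and the log2 fold change with traction was -0.21 (SE 0.275, adjusted p = 0.637) in Tem1WT/WT and 0.39 (SE 0.276, adjusted p = 0.698) in Tem1lacZ/lacZ. The sign in Tem1WT/WT turned to 0.10 when sham replicate 2, its highest library, was left out.

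Rgs5 encodes a GTPase-activating protein that shortens signalling from G-protein-coupled receptors and is among the most abundant transcripts of pericytes. It reached 602 and 533 CPM in Tem1WT/WT traction replicates 2 and 3 but 187 CPM in replicate 1, against 133, 228 and 362 CPM in the sham libraries. In Tem1lacZ/lacZ it was 300, 196 and 231 CPM under sham and 319, 407 and 390 CPM under traction. The Tem1WT/WT groups therefore overlapped, whereas in Tem1lacZ/lacZ all 3 traction libraries lay above all 3 sham libraries. The means were 241 ± 115 and 441 ± 222 CPM in Tem1WT/WT and 242 ± 52.6 and 372 ± 46.7 CPM in Tem1lacZ/lacZ (SD, n = 3). The log2 fold changes, 0.87 (SE 0.427, adjusted p = 0.188) and 0.62 (SE 0.426, adjusted p = 0.69), did not pass the test. Without Tem1WT/WT traction replicate 1 the value for Rgs5 in Tem1WT/WT was 1.22 (adjusted p = 0.0691). Over all fits with 1 library left out it ran from 0.576 to 1.29, and the adjusted p reached 0.452.

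**Figure D2:**
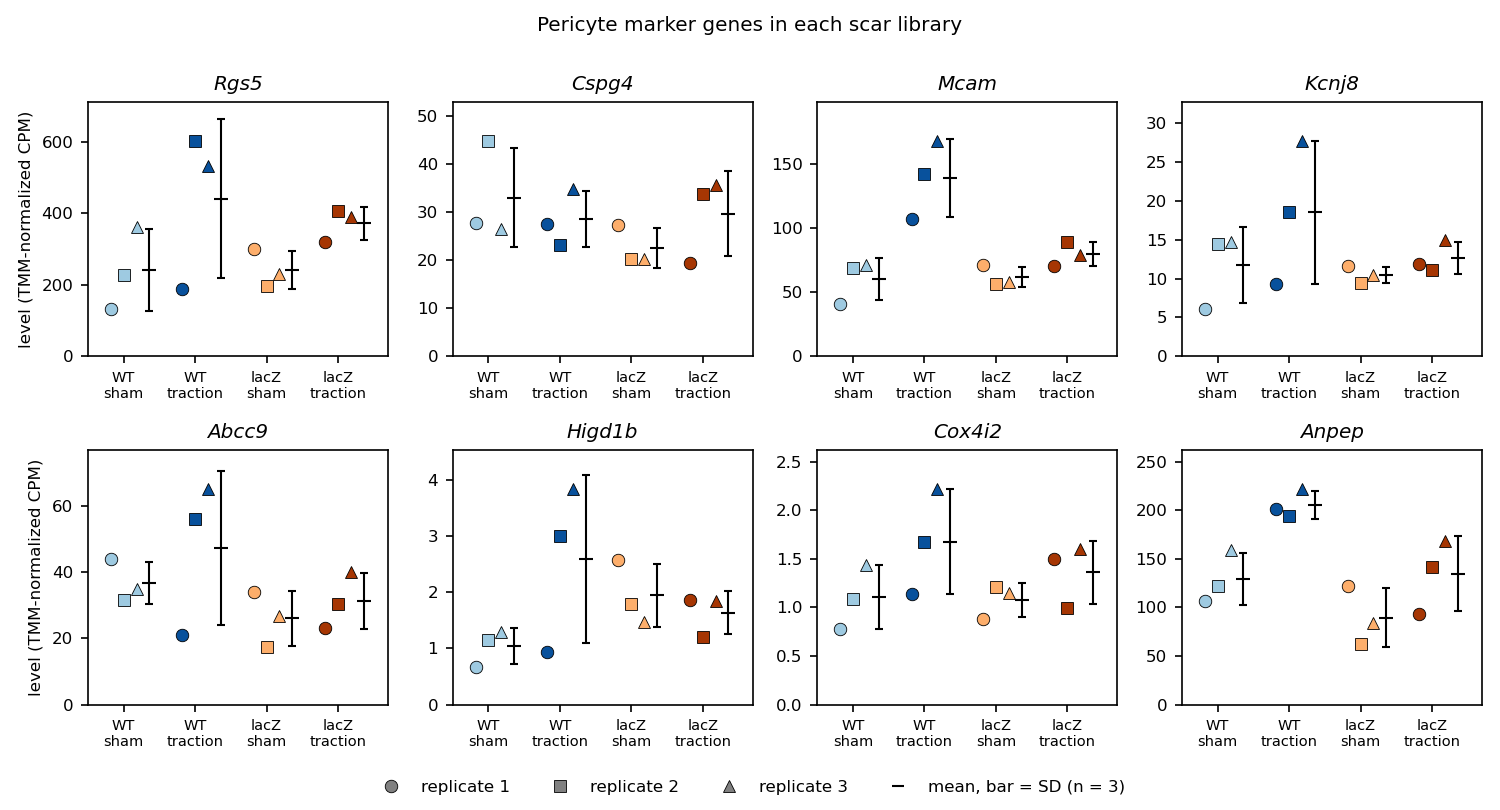
TMM-normalized CPM of each member in the 12 libraries, with 1 symbol per replicate and the mean with its SD (n = 3) beside each group. The 3 Tem1WT/WT traction libraries of Mcam (107 to 168 CPM) and Anpep (194 to 222 CPM) lie above all others, and replicate 1 of that group lies at the sham level for Rgs5 (187 CPM).

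Kcnj8 and Abcc9 encode the pore and the regulatory sulfonylurea receptor subunits of the ATP-sensitive potassium channel of vascular mural cells. Kcnj8 was at 6.14, 14.4 and 14.7 CPM in Tem1WT/WT sham and at 9.26, 18.6 and 27.7 CPM in Tem1WT/WT traction, and at 11.6, 9.49 and 10.4 CPM and 11.9, 11.1 and 15.0 CPM in the corresponding Tem1lacZ/lacZ groups. Abcc9 was at 43.9, 31.5 and 35.0 CPM in Tem1WT/WT sham and at 21.0, 56.2 and 65.2 CPM in Tem1WT/WT traction. In Tem1lacZ/lacZ, Abcc9 was at 34.1, 17.4 and 26.7 CPM under sham and at 23.3, 30.5 and 40.2 CPM under traction. Both genes had their highest values in Tem1WT/WT traction replicates 2 and 3, and their groups overlapped in every comparison. The log2 fold changes with traction were 0.65 for Kcnj8 (SE 0.388, adjusted p = 0.271) and 0.37 for Abcc9 (SE 0.384, adjusted p = 0.543) in Tem1WT/WT, and 0.27 and 0.26 in Tem1lacZ/lacZ.

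The ratio of Abcc9 to Kcnj8, in CPM per kilobase, was between 0.557 and 0.921 in 11 of the 12 libraries and 2.17 in Tem1WT/WT sham replicate 1. In that library Kcnj8 was at its lowest and Abcc9 the highest of its group, and the skeletal muscle list was at its highest, with a summed level of 15100 CPM. Kcnj11, the related pore gene used in skeletal muscle, was also highest there, at 9.05 CPM. The part of muscle RNA in the Abcc9 value was not tested.

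Higd1b and Cox4i2 encode mitochondrial proteins, a member of the hypoxia-inducible domain family and an isoform of a cytochrome c oxidase subunit. Higd1b was at 0.673, 1.15 and 1.29 CPM in Tem1WT/WT sham and at 0.928, 3.00 and 3.84 CPM in Tem1WT/WT traction, and at 2.57, 1.80 and 1.47 CPM and 1.87, 1.20 and 1.85 CPM in Tem1lacZ/lacZ sham and traction. Its log2 fold change of 1.32 in Tem1WT/WT (SE 0.482, adjusted p = 0.0936) was above that of Mcam in size but had a larger SE, and replicate 1 of the traction group lay within the sham range. Without that library Higd1b passed the test at 1.69 (adjusted p = 0.0487). Over all fits with 1 library left out its value ran from 0.918 to 1.69, and the adjusted p reached 0.277. Under sham, all 3 Tem1lacZ/lacZ libraries of Higd1b lay above the 3 Tem1WT/WT libraries, with a log2 fold change of 0.90 (SE 0.48, adjusted p = 0.47). Its interaction was -1.56 (SE 0.676, unadjusted p = 0.0407, adjusted p = 0.548).

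Cox4i2 was at 0.781, 1.09 and 1.44 CPM in Tem1WT/WT sham and at 1.14, 1.68 and 2.22 CPM in Tem1WT/WT traction. The Tem1lacZ/lacZ libraries held 0.881, 1.21 and 1.15 CPM under sham and 1.5, 0.992 and 1.60 CPM under traction. The groups of Cox4i2 overlapped throughout, and its log2 fold changes with traction were 0.60 (SE 0.35, adjusted p = 0.26) in Tem1WT/WT and 0.34 (SE 0.352, adjusted p = 0.801) in Tem1lacZ/lacZ.

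Counted as a panel, 1 of 8 members was called higher with traction in Tem1WT/WT mice, where 9.15% of all tested genes were called in either direction and 5.61% were called higher. Mcam, Higd1b and Anpep had an unadjusted p under 0.05, a share of 3 of 8 beside 31.4% of all genes. Libraries did not overlap for 2 of 8 members, Mcam and Anpep, beside 35.7% of all genes, so these counts were close to those of genes at large. DESeq2 called 2 of 8, Mcam and Higd1b, beside 21.6% of all genes, and limma-voom called 1 of 8, Mcam, beside 3.97%. The median log2 fold change of the 8 members was 0.66, with 7 above 0, while the median of all tested genes was -0.01 and 49.4% lay above 0.

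In Tem1lacZ/lacZ mice edgeR called 0 of 8 members with traction and 0% of all genes. No member had an unadjusted p under 0.05, where 8.12% of all genes did. DESeq2 called 0 members, beside 0.19% of all genes, with 1 of 8 at an unadjusted p under 0.05 (9.86% of all genes). Limma-voom also called 0, beside 2.31%, with 4 of 8 at an unadjusted p under 0.05 (28.2%). The median of the members was 0.35 and 7 of 8 were above 0, beside 48.5% of all genes, Higd1b at -0.25 being the exception. The median was 0.53 without Tem1lacZ/lacZ sham replicate 1, the highest library of its group for 7 of 8 members, and 0.21 without Tem1lacZ/lacZ traction replicate 3. Rgs5 was the 1 member without overlap, beside 12.9% of all genes. Averaged over the genotypes, traction gave values above 0 for all 8 members, beside 48% of all genes, and a median of 0.50. That median was 0.355 without Tem1WT/WT traction replicate 3 and 0.635 without Tem1WT/WT traction replicate 1. Mcam was the 1 member called in this average (0.78, SE 0.16, adjusted p = 0.0254), beside 9.73% of all genes in either direction and 6.5% called higher. That call was lost when any 1 of 6 libraries was left out, Tem1WT/WT sham replicates 1 and 2, Tem1lacZ/lacZ sham replicates 2 and 3 and Tem1lacZ/lacZ traction replicates 2 and 3, with adjusted p from 0.0541 to 0.0745 for Mcam. In the same average DESeq2 called 2 of 8, Mcam and Anpep, and limma-voom called 3 of 8, Rgs5, Mcam and Anpep, beside 20.6% of all genes in each. Anpep followed in edgeR at 0.63 (SE 0.191, adjusted p = 0.0589) and Rgs5 at 0.74 (SE 0.301, adjusted p = 0.125).

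Between the genotypes edgeR called 0 of 8 members under sham, beside 0.0106% of all genes, and 0 of 8 under traction, beside 0.106%. Under sham, 0 members had an unadjusted p under 0.05 (11.7% of all genes), the median was -0.10 with 3 of 8 above 0 (48.6% of all genes), and Higd1b was the 1 member without overlap, beside 26.8% of all genes. That median turned to 0.10 without Tem1WT/WT sham replicate 3, and it was -0.32 without sham replicate 1, -0.02 without sham replicate 2 and -0.24 without Tem1lacZ/lacZ sham replicate 1. Under traction, 7 of 8 members were lower in Tem1lacZ/lacZ, with a median of -0.58 against 0.01 for all tested genes, and Cspg4 at 0.06 was the exception, while 51% of all genes were above 0. Mcam and Anpep had unadjusted p-values under 0.05 (26.1% of all genes) and libraries that did not overlap (26.6%). DESeq2 called 1 of 8, Mcam, at -0.81 (adjusted p = 0.0205), beside 13.2% of all genes in that test, and limma-voom called 0 of 8, beside 0.0849%. The median of the members was -0.19 without Tem1WT/WT traction replicate 3, the highest library of its group for 7 members. It was -0.37 without Tem1lacZ/lacZ traction replicate 1. In the other direction, it was -0.71 without Tem1WT/WT traction replicate 1 and -0.73 without Tem1lacZ/lacZ traction replicate 3.

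For the interaction of genotype with traction, edgeR, DESeq2 and limma-voom each called 0 of 8 members. Of all genes they called 0%, 0.368% and 0%, in that order. The unadjusted p was under 0.05 for 2 of 8, Mcam and Higd1b, and for 8.91% of all genes, and 1 of 8, Cspg4, was above 0, beside 49.8%. The median of the members was -0.26, against -0.00243 for all tested genes. Without Tem1WT/WT traction replicate 3 that median turned to 0.01, with 5 of 8 above 0. It was -0.07 without Tem1WT/WT sham replicate 1, -0.54 without sham replicate 3 and -0.50 without traction replicate 1. Averaged over the treatments, edgeR and limma-voom called 0 of 8 between genotypes, beside 0.053% of all genes in edgeR and 3.07% in limma-voom. DESeq2 called 1 of 8, Anpep (-0.58, adjusted p = 0.0387), beside 18.1% of all genes in that test. In edgeR 2 of 8, Mcam and Anpep, had an unadjusted p under 0.05, beside 28.4% of all genes. In this average 1 of 8, Higd1b, was above 0, beside 50.3% of all genes. The median of the members was -0.30, or -0.16 without Tem1WT/WT traction replicate 3 and -0.39 without Tem1WT/WT sham replicate 1. The comparisons of traction and of genotype share libraries, so their values for a member are not independent of each other.

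**Figure D3:**
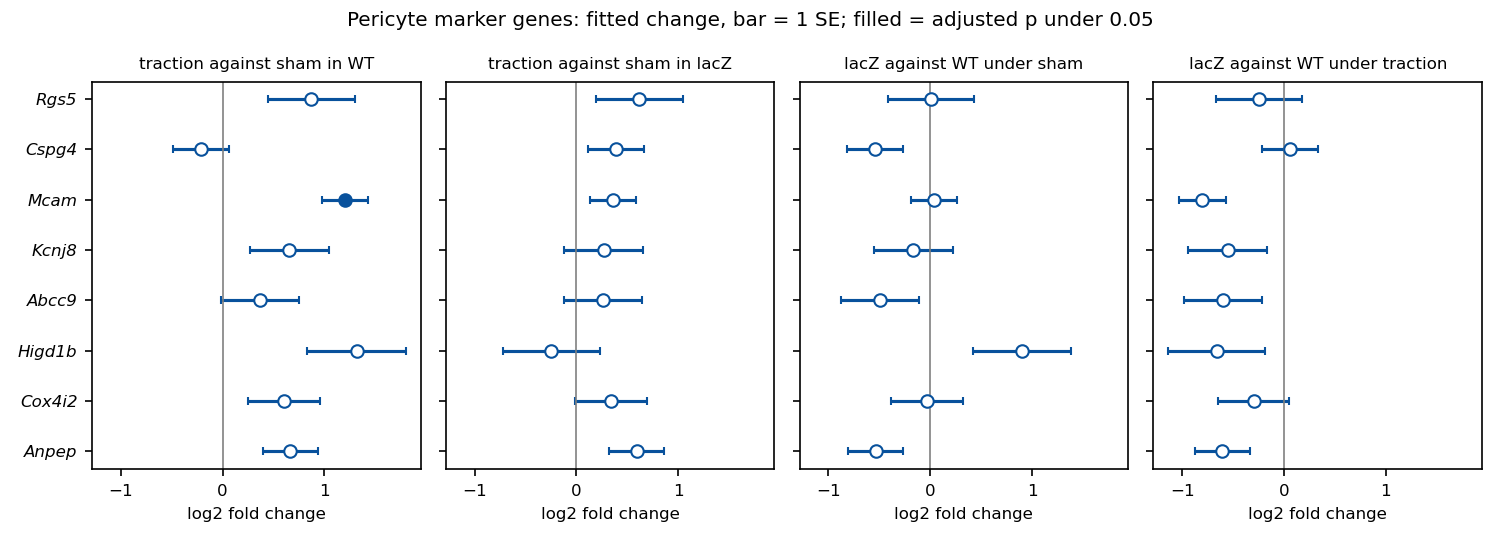
Fitted log2 fold change of each member (x axis) in the 4 pairwise comparisons, with bars of 1 SE and a filled point where the adjusted p was under 0.05. Mcam with traction in Tem1WT/WT mice, at 1.20, is the 1 filled point, and 7 of 8 members lie above 0 in each traction comparison.

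Tem1WT/WT traction replicate 1 had the lowest level of its group for 6 of the 8 members and the highest for none. Replicate 3 had the highest level for 7. In the same replicate 1, Pdgfrb, the receptor through which pericytes are recruited, was at 255 CPM, the highest of its group, and the endothelial list was 0.61 log2 units above the mean of all libraries. The mean log2 level of the members minus that of the endothelial list, each relative to the 12 libraries, was -0.81 in replicate 1, and it lay between -0.35 and 0.47 in the other 11 libraries. The neutrophil list in replicate 1 had a summed level of 8480 CPM, the highest of its group, which ranged from 396. Its part in the low levels of the members was not tested. Tem1WT/WT sham replicate 1, with the highest muscle list, likewise had the lowest level of its group for 6 members. Leaving out traction replicate 1 moved the median of the 8 members in Tem1WT/WT from 0.66 to 0.88. Without traction replicate 3 it was 0.48, without sham replicate 1 it was 0.53 and without sham replicate 3 it was 0.84.

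**Figure D4:**
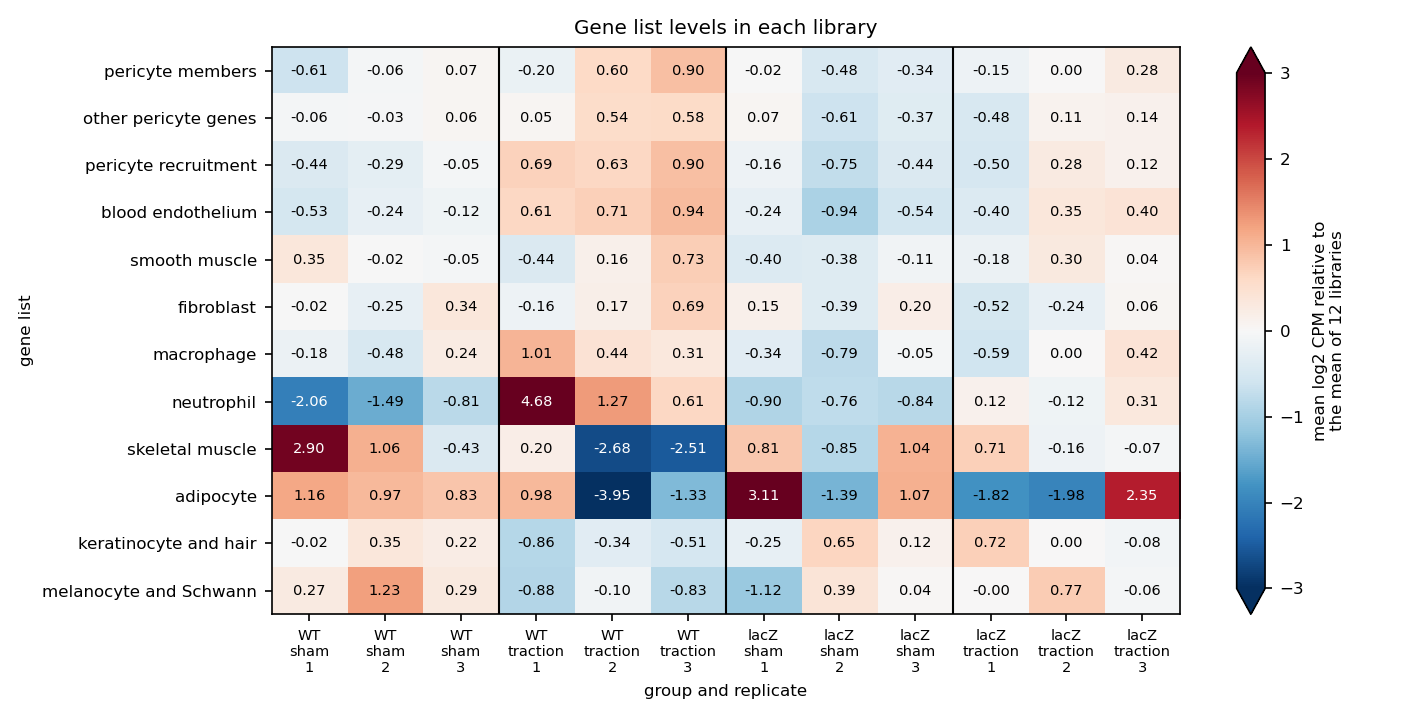
Mean log2 CPM of the members and of 11 other gene lists in each library, relative to the mean of the 12 libraries. Among Tem1WT/WT traction libraries the members read -0.20, 0.60 and 0.90 while the endothelial list reads 0.61, 0.71 and 0.94 and the neutrophil list 4.68, 1.27 and 0.61.

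A further 16 genes used for pericytes, not counting Cd248, had 0 called in the pairwise comparisons other than Tem1WT/WT traction. There 1 gene was called, beside 9.15% of all genes. That gene was Pdgfrb, at 66.4 ± 9.28 CPM under sham and 203 ± 52.1 CPM under traction (SD, n = 3), a log2 fold change of 1.61 (SE 0.284, adjusted p = 0.0252). Pdgfrb is carried by fibroblasts as well as pericytes. In Tem1lacZ/lacZ it was at 44.3 ± 8.43 and 91.8 ± 32.5 CPM (1.05, SE 0.28, adjusted p = 0.598). The median of the 16 was 0.42 in Tem1WT/WT with 13 above 0, or 0.28 without traction replicate 3, and 0.24 in Tem1lacZ/lacZ with 14 above 0. Averaged over genotypes, Pde5a, which degrades cyclic GMP in contractile cells, was called beside Pdgfrb (0.67, SE 0.172, adjusted p = 0.0401), a call that held in 2 of 12 fits with 1 library left out. The list counts in Tem1WT/WT depended on single libraries. Without sham replicate 1 or without sham replicate 2, edgeR called 0 of all genes in this comparison. It then called 0 of every list named here, Pdgfrb included. All-gene calls, 1725 with all 12 libraries, were 169 without Tem1lacZ/lacZ sham replicate 3. They were 360 without Tem1WT/WT traction replicate 1 and 2861 without Tem1WT/WT traction replicate 2.

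The ligands and receptors that link endothelium and pericytes moved further. Of 14 such genes, 7 were called higher with traction in Tem1WT/WT, beside 5.61% of all genes, and none lower, with a median of 1.41. Angpt2, the vessel-destabilizing angiopoietin, had the largest change at 1.91 (SE 0.382, adjusted p = 0.0288), followed by the endothelial Notch ligand Dll4 at 1.72 (SE 0.278, adjusted p = 0.0242) and Tgfb1, a growth factor in mural cell differentiation, at 1.68 (SE 0.387, adjusted p = 0.0334). Without traction replicate 1, 4 of the 14 were called, and without Tem1lacZ/lacZ sham replicate 3 it was 2. The call held in 8 of 12 fits with 1 library left out for Angpt2, in 10 for Dll4 and in 7 for Tgfb1. The value of Tgfb1 fell to 1.11 in the lowest of them. In Tem1lacZ/lacZ 0 of 14 were called, where edgeR called 0% of all genes, with a median of 0.29. There 4 of 14 had an unadjusted p under 0.05, beside 8.12% of all genes.

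Endothelial genes moved in the same comparison. Of 16, 10 were called higher with traction in Tem1WT/WT, beside 5.61% of all genes, with a median of 1.12. The largest changes were those of the junction cadherin Cdh5 (1.60, SE 0.344, adjusted p = 0.0317), the receptor Tie1 (1.55, SE 0.28, adjusted p = 0.0252) and the TGF-beta co-receptor Eng (1.47, SE 0.304, adjusted p = 0.0303). The summed level of the 16 genes ran from 578 to 809 CPM in Tem1WT/WT sham, 1460 to 1700 in Tem1WT/WT traction, 434 to 723 in Tem1lacZ/lacZ sham and 642 to 1160 in Tem1lacZ/lacZ traction, and no defining marker was at 0. The count of 10 became 4 without traction replicate 1, 5 without traction replicate 3 and 3 without Tem1lacZ/lacZ sham replicate 3, while the median stayed between 1.04 and 1.24 with any library left out. The calls for Cdh5 and Eng each held in 7 of 12 fits with 1 library left out, and that for Tie1 in 10. In Tem1lacZ/lacZ 0 of the 16 endothelial genes were called with traction, where edgeR called 0% of all genes. Their median there was 0.70, and 15 of 16 were above 0, beside 48.5% of all genes. An unadjusted p under 0.05 was found for 10 of 16 in Tem1lacZ/lacZ, beside 8.12% of all genes. Eng and Tek were also among the ligands and receptors above. Lists can share genes, so their counts are not independent. Since endothelial cells also carry Mcam, the endothelial values stand beside its rise, and their part in it was not tested.

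Lists of other cell types moved less uniformly. The shares to set beside their counts with traction in Tem1WT/WT are those of all genes. These were 9.15% called in either direction, 5.61% called higher and 31.4% with an unadjusted p under 0.05. Of 12 smooth muscle genes 0 were called in any pairwise comparison, and in Tem1WT/WT traction 4 had an unadjusted p under 0.05 and the median was 0.19. That median was -0.15 without traction replicate 3, 0.30 without replicate 2, 0.45 without replicate 1, where 2 genes were called, and 0.34 without sham replicate 1. The summed smooth muscle level was 1030 to 1410 CPM in Tem1WT/WT sham, 1050 to 1900 in Tem1WT/WT traction, 902 to 1050 in Tem1lacZ/lacZ sham and 1010 to 1200 in Tem1lacZ/lacZ traction. Of these 12 genes, Tagln held only 3 to 37 reads per library, against 6640 to 36165 for Acta2. The cause of the low Tagln count was not tested. Of 12 fibroblast genes 2 were called higher, with a median of 0.33 that ran from 0.01 without traction replicate 3 to 0.62 without sham replicate 3, and summed levels of 13900 to 18700 CPM under sham and 20700 to 55800 under traction in Tem1WT/WT. Of 9 tested neutrophil genes 7 were called higher, with a median of 4.86 and summed levels of 71.0 to 123 CPM under sham and 396 to 8480 under traction. Without traction replicate 1 the median was 2.21 and 2 were called. The neutrophil marker Ly6g was at 0 reads in all 3 Tem1WT/WT sham libraries. Of 12 macrophage genes 1, Cd14, was called higher, with a median of 0.61 and summed levels of 2600 to 4350 and 4180 to 6000 CPM. Of 10 skeletal muscle genes 0 were called, although all 10 had an unadjusted p under 0.05 and a median of -2.83. That median was -1.55 without sham replicate 1 and -4.28 without traction replicate 1, where 3 were called lower. No adipocyte gene of 9 was called (median -1.45, and -3.57 without traction replicate 1 and -0.87 without replicate 2), 1 of 10 keratinocyte and hair genes, Epcam, fell (median -0.52, and -0.825 without traction replicate 1), and 1 of 8 melanocyte and Schwann genes, Mlana, fell (median -1.47, and -0.90 without sham replicate 2). With 1 library left out, the call held in 7 of 12 fits for Cd14, 8 for Epcam and 4 for Mlana. None of these lists had a called gene in the other 3 pairwise comparisons. Of all genes, edgeR called 0% with traction in Tem1lacZ/lacZ, and 0.0106% and 0.106% between genotypes under sham and under traction.

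The closest relatives of the members were at other levels in most libraries. Per kilobase, Cox4i1, the isoform of the oxidase subunit used in most tissues, averaged 85.6 ± 9.86 CPM over the 12 libraries (SD), and its ratio to Cox4i2 ran from 27.0 to 89.5. Higd1a averaged 20.2 ± 6.69, with a ratio to Higd1b from 4.10 to 19.3, and Higd1c had no reads in any library. Rgs4, the neighbour of Rgs5 on chromosome 1, averaged 8.92 ± 5.91. The ratio of Rgs5 to Rgs4 was 16.2 to 22.0 in Tem1lacZ/lacZ traction and 2.58 to 5.54 in Tem1lacZ/lacZ sham. Rgs4 fell with traction averaged over genotypes (log2 fold change -1.01, SE 0.283, adjusted p = 0.0478), and in Tem1lacZ/lacZ alone its value was -1.75 (SE 0.407, adjusted p = 0.598). That call for Rgs4 was lost with any 1 of the 12 libraries left out. The channel relatives Kcnj11 and Abcc8 averaged 0.429 and 0.0216 CPM per kilobase. The mean of Kcnj11 was carried by Tem1WT/WT sham replicate 1, where it was level with Kcnj8 (ratio of Kcnj8 to Kcnj11 0.979), and without that library it was 0.244. Kcnj11, Abcc8, Cox4i1 and Higd1a were not called in any comparison.

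The likeness of the members over the 12 libraries differed widely from pair to pair. The 28 pairs of members had Pearson correlations of log2 CPM from -0.11 to 0.86 (median 0.58), and the 21 pairs without Cspg4 from 0.24 to 0.86. Rgs5 and Kcnj8 were the most alike (Pearson r = 0.86, Spearman rho = 0.84, n = 12, r = 0.76 without the 2 libraries farthest from the median, and 0.86 for deviations from the group means), followed by Kcnj8 and Cox4i2 (r = 0.85, rho = 0.76, and 0.60 without the 2 farthest). Among pairs without Cspg4 the least alike were Higd1b and Anpep (r = 0.24, rho = 0.19, and -0.10 without the 2 farthest), and Mcam and Abcc9 went from 0.48 to -0.26 without the 2 farthest (rho = 0.39). Cspg4 was most like Anpep (r = 0.53, rho = 0.53, and 0.66 without the 2 farthest). These points share their library, its depth and its tissue composition, and the correlations are given as a description.

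Genes outside the panel with the most similar pattern were sought among the 13640 genes whose log2 CPM averaged 1 or more. The mean profile of the 8 members was matched most closely by 3 chains of collagen VI, a filament collagen of the pericellular matrix, together with Thbs2 and Arhgap28. Pearson r was 0.969 for Col6a2 (rho 0.944), 0.966 for the matricellular protein Thbs2 (rho 0.916), 0.964 for Col6a1 (rho 0.951), 0.963 for Col6a3 (rho 0.881) and 0.951 for Arhgap28 (rho 0.93), and without the 2 farthest libraries they were 0.86 to 0.917. For Rgs5 the closest were the endothelial lectin Clec14a (r = 0.972, rho 0.979), the cadherin Cdh11 (r = 0.959, rho 0.951) and Phldb2 (r = 0.952, rho 0.944). None of these 8 genes was called with traction in either genotype or between the genotypes under traction, with log2 fold changes with traction in Tem1WT/WT of 1.46 for Col6a2 (adjusted p = 0.0747) and 0.89 for Clec14a (adjusted p = 0.188).

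**Figure D5:**
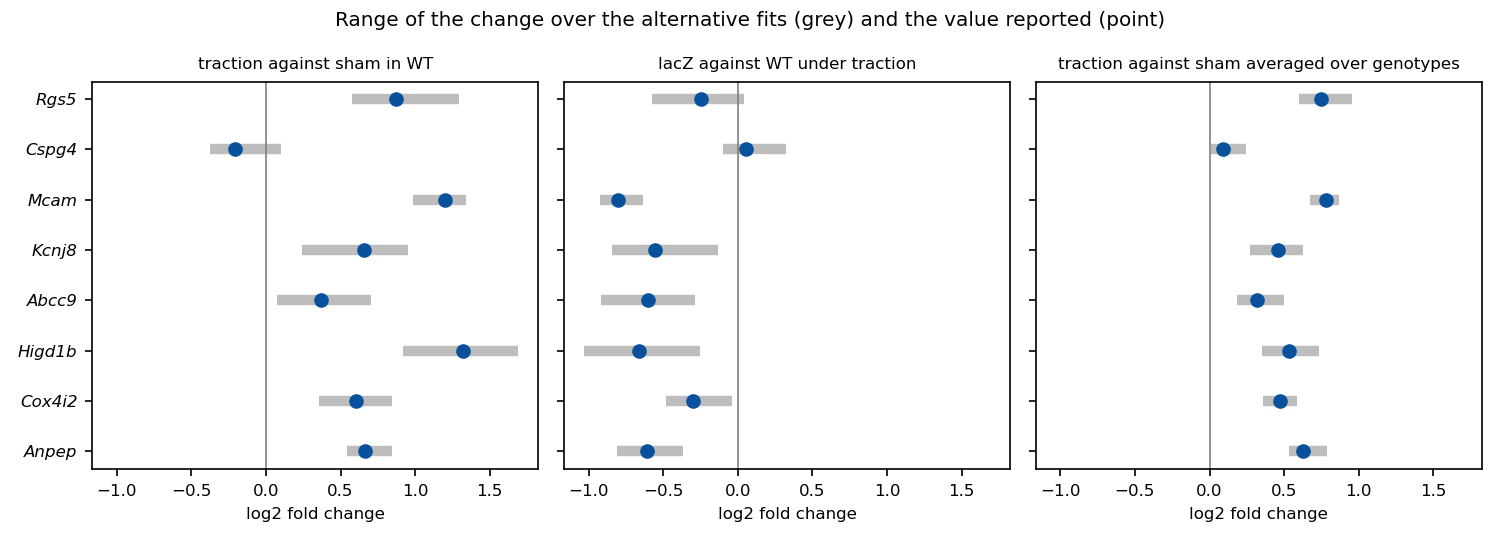
Log2 fold change of each member as reported (point) and its range over the alternative fits (grey bar) in 3 comparisons. The bar of Mcam with traction in Tem1WT/WT runs from 0.985 to 1.34, while that of Cspg4 crosses 0.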

How the data were processed

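Bulk RNA sequencing counts of 12 mouse scar samples were used. The authors trimmed the reads with fastp 0.20.0, aligned them with HISAT2 2.1.0 to GRCm38 and deposited raw counts per gene from featureCounts 2.0.0, 1 file per mouse; the annotation and strand setting are not given in the sources used here. Counts were analysed in R 4.3.3 with edgeR 4.0.16: genes were kept by filterByExpr (18853 of 35976), scaled by TMM and fitted with a robust quasi-likelihood model of the 4 groups on all 12 libraries (8 residual degrees of freedom), and contrasts were tested two-sided with Benjamini-Hochberg adjustment at 0.05. The tests were checked on simulated data. DESeq2 1.42.0, limma 3.58.1 (voom with sample weights), other scalings and filters, a replicate block and leaving out each library in turn were alternatives; for the lists and the genes that are not members, leaving out libraries was added after seeing the data.

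Depth ran from 41536788 to 64644293 reads per library, and 31 to 187 reads of Higd1b limit its precision. Groups came from the sample labels. All 8 members are named. From each other list at most the 3 largest called changes in each direction are named, with all relatives of the members. Genes of like pattern are the 5 highest correlations with the members' mean profile and the 3 highest with Rgs5. The members and lists were chosen with earlier results of these data known. Gucy1a1 and Gucy1b1 were found under their older symbols. Replicate numbers were not treated as pairs in the main fit, since the samples are different mice. The labels do not say whether a number stands for a shared batch. Over 18 pairs of same-numbered libraries, correlations of deviations from group means ran from -0.324 to 0.25, with 8 over 0.1. No 2 libraries of a group agreed within sampling noise. Gene positions came from GENCODE, and promoters from RefSeq, matched by symbol.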

Additional observations from a re-analysis of the deposited data

How the results depend on the processing

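Of the 8 members, the number called with traction in Tem1WT/WT was 1 in edgeR, 2 with DESeq2 (Mcam and Higd1b), 0 with only the 6 libraries of that genotype and 0 to 2 with 1 library left out. Averaged over genotypes it was 1 in edgeR, 2 with DESeq2 (Mcam and Anpep), 3 with limma-voom (Rgs5, Mcam and Anpep) and 0 to 2 with 1 library left out. DESeq2 called 1 member between genotypes under traction (Mcam) and 1 averaged over treatments (Anpep), where edgeR called 0. Over all genes the count averaged over genotypes was 1835 in edgeR, 3850 with DESeq2 and 3881 with limma-voom. With traction in Tem1WT/WT it was 1725 in edgeR, 4047 with DESeq2, 748 with limma-voom, 1011 without the filter on low counts and 0 with the 6 libraries. Upper quartile scaling shifted the median of all genes to -0.12 there and moved the share of calls that were higher from 61.3% to 43.9%, and it shifted the median between genotypes under traction to 0.144. The cause of these changes was not tested.

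With the replicate number as a block, Mcam stayed the 1 member called with traction in Tem1WT/WT and in the average over genotypes, all-gene calls in Tem1WT/WT were 1467, and no call of a member changed. Of the 12 libraries 8 correlated best with a library of their own number, a hint from the data and not the design. The sign of Rgs5 between genotypes averaged over treatments turned to 0.00142 under the block.

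Signs turned in 42 of the alternative values, each of a member that was not called. Under sham, between genotypes, Rgs5 was -0.0224 without the filter on low counts and -0.0233 with limma-voom, Mcam -0.0434 with limma-voom and Cox4i2 0.0265 with upper quartile scaling. The interaction of Anpep was 0.000788 with upper quartile scaling and 0.189 with limma-voom, and Higd1b averaged over treatments was -0.0384 with limma-voom. With 1 library left out, the following ranges of log2 fold change crossed 0. With traction they were -0.373 to 0.0971 for Cspg4 in Tem1WT/WT and -0.39 to 0.0391 for Higd1b in Tem1lacZ/lacZ. Between genotypes under sham they were -0.282 to 0.428 for Rgs5, -0.174 to 0.178 for Mcam, -0.474 to 0.0274 for Kcnj8 and -0.221 to 0.213 for Cox4i2, and under traction -0.577 to 0.0444 for Rgs5 and -0.102 to 0.321 for Cspg4. For the interaction they were -0.667 to 0.0434 for Rgs5, -0.655 to 0.0546 for Kcnj8, -0.407 to 0.225 for Abcc9, -0.509 to 0.0142 for Cox4i2 and -0.282 to 0.263 for Anpep. Averaged over treatments they were -0.292 to 0.0945 for Rgs5 and -0.0718 to 0.317 for Higd1b.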
